A study of Mus musculus with 2 samples.

Results

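The genes described here are 9 genes of major histocompatibility complex (MHC) class I presentation: H2-K1, H2-D1, B2m, H2-T3, H2-Q1, H2-Q2, Tap1, Tap2 and Cd1d1. They were chosen by name, as listed genes present in the count matrix of both libraries, and all 9 were found among the 32285 genes measured. The series concerns the M1 and M3 muscarinic receptors of the mouse intestine. Its single-cell data are 2 droplet libraries of proximal small intestine from C57BL/6 mice, both labelled as controls and here called control 1 (titled M1 Control) and control 2 (titled M3 Control). The alleles, treatment and age of these control mice, and whether each library came from 1 animal, are not given in the sources used here. There is therefore 1 group of 2 libraries and no treatment comparison. The comparisons below are between cell classes, with each library giving 1 value per class. Their p-values rest on the counts and on a spread between these 2 libraries that is estimated with pooling across genes. They do not measure the spread among a wider set of mice.

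Class I molecules show peptides from inside the cell to CD8 T cells. A heavy chain (H2-K1 and H2-D1 are the classical ones) pairs with the small chain beta-2 microglobulin, made by B2m, and peptides reach it through the Tap1-Tap2 transporter of the endoplasmic reticulum. The nonclassical heavy chains vary less between individuals and have narrower roles. H2-T3 encodes the thymus leukaemia antigen, known from intestinal epithelium and bound by the CD8 alpha-alpha homodimer that many intraepithelial lymphocytes carry. H2-Q1 and H2-Q2 are less studied heavy chain genes of the Q region. Cd1d1 encodes CD1d, which pairs with beta-2 microglobulin but presents lipids to natural killer T cells, and which loads them in endosomes without Tap.

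On GRCm38 with the GENCODE M21 annotation, 7 of the 9 genes lie in the MHC on chromosome 17. H2-K1 (ENSMUSG00000061232) spans chr17:33996017-34000347 on the minus strand, Tap1 (ENSMUSG00000037321) chr17:34187553-34197225 and Tap2 (ENSMUSG00000024339) chr17:34203527-34216321, both on the plus strand. H2-D1 (ENSMUSG00000073411) spans chr17:35262730-35267499, H2-Q1 (ENSMUSG00000079507) chr17:35320405-35325099 and H2-Q2 (ENSMUSG00000091705) chr17:35342242-35346762, all on the plus strand. H2-T3 (ENSMUSG00000054128) spans chr17:36185572-36190287 on the minus strand. B2m (ENSMUSG00000060802) lies apart at chr2:122147686-122153083 on the plus strand, and Cd1d1 (ENSMUSG00000028076) at chr3:86995834-86999441 on the minus strand. The libraries read transcript ends, so near-identical ends matter. Of all 60-base words in the last 500 bases of the annotated transcripts, 13.8% of those of H2-Q1 also occur in H2-Q2, 8.96% of those of H2-Q2 in other genes, 4.69% of those of H2-K1 and 3.56% of those of H2-D1. H2-T3, B2m, Tap2 and Cd1d1 share none, and Tap1 shares 1.69% with Tap2. The treatment of reads that match several genes is not stated in the labels or headers. The split between H2-Q1 and H2-Q2 is therefore uncertain.

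The promoters of 4 heavy chain genes are shown because the levels below separate H2-K1 and H2-D1, present in all classes, from H2-T3 and H2-Q2, which are highest in enterocyte-like cells. RefSeq's promoter table (GRCm38.p6) held 6 of the 9 genes. Each line gives the 250 bases before the RefSeq start, 5' to 3' on the gene's strand, and capitals mark matches to 4 motifs searched on both strands: AGTTTCAC (interferon-response type), GGGATTCCC (kappa B type), TGACGC (the X2-type element of class I promoters) and CCAAT. The windows are chr17:34000348-34000597 on the minus strand for H2-K1, chr17:35262844-35263093 on the plus strand for H2-D1, chr17:36190152-36190401 on the minus strand for H2-T3 and chr17:35342057-35342306 on the plus strand for H2-Q2. RefSeq and GENCODE starts differ, so the H2-D1 window lies within the GENCODE span given above. The H2-T3 and H2-Q2 windows overlap theirs in part. Distances to the start therefore depend on the RefSeq start chosen.
H2-K1: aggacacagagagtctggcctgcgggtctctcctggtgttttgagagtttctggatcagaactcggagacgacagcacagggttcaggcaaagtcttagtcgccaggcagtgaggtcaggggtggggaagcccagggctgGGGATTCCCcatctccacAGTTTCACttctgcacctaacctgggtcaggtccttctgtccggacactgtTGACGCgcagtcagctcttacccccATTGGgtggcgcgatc
H2-D1: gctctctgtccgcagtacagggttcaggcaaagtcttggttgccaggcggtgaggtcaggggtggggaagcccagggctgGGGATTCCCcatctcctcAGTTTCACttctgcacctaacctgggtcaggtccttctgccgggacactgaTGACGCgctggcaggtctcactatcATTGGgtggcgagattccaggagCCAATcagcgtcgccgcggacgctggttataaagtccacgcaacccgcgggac
H2-T3: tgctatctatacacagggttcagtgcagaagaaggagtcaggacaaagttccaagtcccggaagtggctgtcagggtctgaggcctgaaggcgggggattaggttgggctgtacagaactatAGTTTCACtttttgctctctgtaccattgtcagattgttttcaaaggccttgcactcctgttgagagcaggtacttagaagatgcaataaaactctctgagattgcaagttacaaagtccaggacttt
H2-Q2: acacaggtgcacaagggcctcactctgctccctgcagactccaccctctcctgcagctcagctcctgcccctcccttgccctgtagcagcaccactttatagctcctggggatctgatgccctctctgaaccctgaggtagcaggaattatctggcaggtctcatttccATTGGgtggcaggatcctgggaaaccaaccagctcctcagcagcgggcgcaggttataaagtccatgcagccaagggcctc
AGTTTCAC was in 0.692% of 27025 promoter windows of this length and in those of H2-K1, H2-D1 and H2-T3, beginning 92, 152 and 128 bases before the start. GGGATTCCC, in 0.311% of promoters, and TGACGC, in 6.14%, were in those of H2-K1 and H2-D1 among the 6. CCAAT, in 34.5% of promoters, was in 5 of the 6, with H2-T3 the exception. No 2 matches in the printed windows overlapped. H2-K1 and H2-D1 shared an unbroken run of 47 bases, whereas the longest run that H2-K1 shared with H2-T3 was 12 bases. A match describes letters in this window and is not evidence of binding.

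Control 1 held 9342 cell barcodes with 54451793 unique molecular identifiers (UMIs, counts of distinct captured RNA molecules) and control 2 held 7109 with 36139325. After removal of barcodes with under 500 genes, over 25% mitochondrial UMIs or a doublet call, 7115 and 4714 cells remained, and 17 barcodes occurred in both libraries. Clusters were named from marker genes that include none of the 9, so each class is called by likeness. Enterocyte-like cells numbered 3645 and 2433 and T or natural killer (NK)-like cells 2623 and 1666, beside 391 and 161 progenitor-like, 112 and 248 goblet-like, 181 and 78 myeloid-like and 28 and 54 B or plasma-like cells. Enteroendocrine-like (32 and 15), tuft-like (18 and 8), Paneth-like (16 and 13) and plasmacytoid dendritic-like (28 and 11) cells had under 20 cells in at least 1 library and were not tested. Erythroid-like cells (41 and 27) were not tested and not plotted. In the enterocyte-like class, 278 and 211 deep cells of clusters rich in mitochondrial RNA held 13710991 of its 24065659 UMIs in control 1 and 6175712 of 12691870 in control 2.

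The progenitor-like class was not pure. Summed over 13 T or NK markers, its level was 10678 and 14521 CPM (the UMIs of a gene or gene list in 1e6 UMIs of the class), against 506 and 473 in enterocyte-like cells. This RNA sat in the cycling cluster, at 15858 and 18340 CPM, and not in the cluster led by Ascl2 and other stem-type genes, at 521 and 648. Results on progenitor-like cells are therefore given with the whole class and with its 78 and 27 cells that held no T or NK marker UMI, a restriction added after the data were seen.

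The classical genes were present in all classes and highest in T or NK-like and plasmacytoid dendritic-like cells, with H2-D1 as high in tuft-like cells. Levels are CPM in each library, in the order control 1, control 2. H2-K1 stood at 778 and 1053 CPM in enterocyte-like cells, a mean of 915 ± 194 (SD, n = 2). It was at 904 and 1114 in goblet-like, 463 and 649 in progenitor-like, 497 and 504 in enteroendocrine-like and 743 and 1035 in tuft-like cells. T or NK-like cells had 1783 and 1506 CPM, a mean of 1644 ± 196 (SD, n = 2), plasmacytoid dendritic-like cells 1600 and 1636, and myeloid-like cells 1138 and 934. T or NK-like and plasmacytoid dendritic-like cells were thus above every epithelial class in both libraries, while enterocyte-like and goblet-like cells overlapped. The lowest level was in Paneth-like cells, the granule-secreting cells of the crypt base, at 105 and 127 CPM. All these levels are shares of the UMIs of a class, so very abundant genes lower the rest. Paneth markers summed to 589532 and 508560 CPM in Paneth-like cells, and goblet markers to 385117 and 397397 in goblet-like cells. B or plasma markers summed to 583457 and 240131 in B or plasma-like cells. The class levels given here are not corrected for this.

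H2-D1 was further apart between enterocyte-like and T or NK-like cells than H2-K1 in both libraries. It stood at 387 and 388 CPM in enterocyte-like, 460 and 459 in goblet-like, 362 and 432 in progenitor-like, 276 and 235 in enteroendocrine-like and 50.9 and 48.6 in Paneth-like cells. Its highest mean was in tuft-like cells, the chemosensory cells of the epithelium, at 1441 and 2255 CPM, next to 1733 and 1363 in T or NK-like and 1649 and 1587 in plasmacytoid dendritic-like cells. These 3 classes overlapped, and the tuft-like values rest on 18 and 8 cells.

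B2m was likewise present in all classes. Its level was 1151 and 1311 CPM in enterocyte-like, 772 and 713 in goblet-like, 555 and 728 in progenitor-like, 325 and 242 in enteroendocrine-like and 113 and 131 in Paneth-like cells. Immune levels ranged from 1008 and 1034 CPM in B or plasma-like to 2130 and 1790 in plasmacytoid dendritic-like cells, with 1886 and 1740 in T or NK-like and 1874 and 1911 in myeloid-like cells. T or NK-like, myeloid-like and plasmacytoid dendritic-like cells overlapped.

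The transporter genes were lower in enterocyte-like and goblet-like than in immune cells. Tap1 was at 20.2 and 18.3 CPM in enterocyte-like and 13.5 and 18.2 in goblet-like cells, against 71.8 and 70.4 in T or NK-like and 118 and 97.7 in plasmacytoid dendritic-like cells. Tap2 was at 22.9 and 21.5 CPM in enterocyte-like and 26.9 and 32.9 in goblet-like cells, against 114 and 119 in T or NK-like and 82.7 and 74.7 in myeloid-like cells. Paneth-like cells had the lowest mean for both, at 0.820 and 3.89 CPM for Tap1 and 1.64 and 1.95 for Tap2. For each gene the T or NK-like, myeloid-like, B or plasma-like and plasmacytoid dendritic-like values lay above the enterocyte-like values in both libraries.

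**Figure D1:**
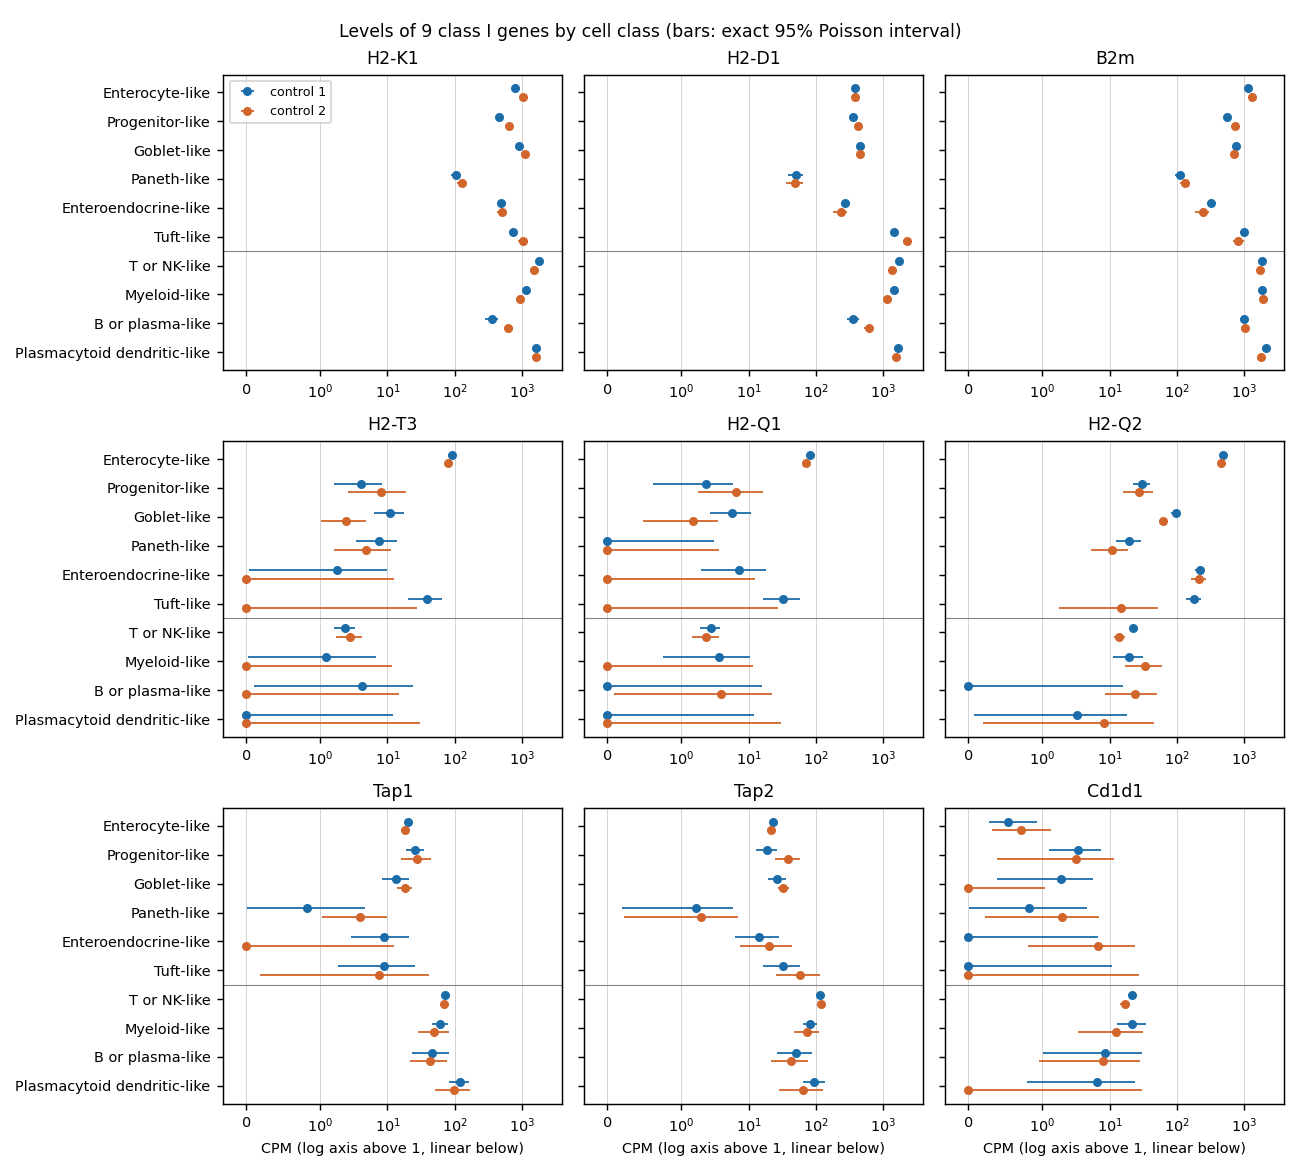
Level of each of the 9 genes by cell class, in CPM on a log axis above 1 and a linear one below it, with 1 point per library and bars for the exact 95% Poisson interval, which covers counting error only. H2-T3, H2-Q1 and H2-Q2 are highest in enterocyte-like cells, Cd1d1 is highest in T or NK-like and myeloid-like cells, and H2-K1, H2-D1 and B2m are present in every class.

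H2-T3 had the reverse distribution. Enterocyte-like cells held 2218 of its 2304 UMIs in control 1 (96.3%) and 998 of 1040 in control 2 (96.0%). Their level was 92.2 CPM (exact Poisson 95% interval 88.4 to 96.1) and 78.6 (73.8 to 83.7), a mean of 85.4 ± 9.57 (SD, n = 2). T or NK-like cells had 2.35 and 2.74 CPM, from 32 and 22 UMIs, and goblet-like cells 10.9 and 2.39. Plasmacytoid dendritic-like cells had no H2-T3 UMI, which at their depth allows up to 9.83 and 24.4 CPM. At least 1 H2-T3 UMI was seen in 18.4% of enterocyte-like cells of control 1 (exact binomial 95% interval 17.1 to 19.7) and 17.5% of control 2 (16.0 to 19.1), at median depths of 2426 and 2333 UMIs. In T or NK-like cells the share was 1.14% and 1.26%, at median depths of 5081 and 4392.5 UMIs. With each cell thinned to 2000 UMIs and shallower cells left out, it was 11.1% and 12.1% of 2201 and 1426 enterocyte-like cells, against 0.407% and 0.390% of 2210 and 1281 T or NK-like cells.

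H2-Q1 and H2-Q2 shared the enterocyte-like maximum but not the rest of the order. H2-Q1 stood at 81.4 and 72.8 CPM in enterocyte-like cells and at 5.77 and 1.50 in goblet-like and 2.72 and 2.36 in T or NK-like cells, with 0 UMIs in Paneth-like cells. H2-Q2 stood at 488 and 460 CPM in enterocyte-like cells, a mean of 474 ± 19.8 (SD, n = 2). For H2-Q2 the next class was the enteroendocrine-like cells, the hormone-secreting cells, at 221 and 212 CPM from 123 and 63 UMIs. Goblet-like cells were at 96.2 and 62.8, erythroid-like cells at 105 and 78.8, progenitor-like cells at 30.3 and 27.3 and T or NK-like cells at 22.3 and 13.9. The tuft-like values of the 2 libraries were far apart for H2-T3 (38.5 and 0 CPM), H2-Q1 (32.5 and 0) and H2-Q2 (180 and 14.8). Tuft-like cells of control 1 also carried more enterocyte marker RNA, 30307 CPM against 16075 in control 2.

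Cd1d1 was an immune-cell transcript here. T or NK-like cells held 292 of its 338 UMIs in control 1 (86.4%) and 138 of 160 in control 2 (86.2%), at 21.4 and 17.2 CPM and a mean of 19.3 ± 3.02 (SD, n = 2). Myeloid-like cells stood at 21.9 and 12.5 CPM from 18 and 4 UMIs and did not differ from T or NK-like cells beyond that spread, and B or plasma-like cells at 8.47 and 7.89 CPM from 2 UMIs in each library. Enterocyte-like cells had 13 and 9 UMIs, a level of 0.540 CPM (exact Poisson 95% interval 0.288 to 0.924) and 0.709 (0.324 to 1.35). At least 1 Cd1d1 UMI was seen in 10.3% and 7.74% of T or NK-like cells and in 0.247% and 0.370% of enterocyte-like cells. Tuft-like cells had no Cd1d1 UMI, which allows up to 8.88 and 22.2 CPM at their depth.

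Free RNA in the droplets puts UMIs of abundant genes into cells that do not make them, and such UMIs keep the proportion to other genes of their source. The low H2-T3, H2-Q1 and H2-Q2 counts outside the enterocyte-like class were therefore set against 11 enterocyte markers in the same cells. T or NK-like cells had 0.721 and 1.55 H2-T3 UMIs per 1000 enterocyte marker UMIs, and enterocyte-like cells 1.39 and 1.35. For H2-Q1 these values were 0.834 and 1.34 against 1.23 and 1.25, and for H2-Q2 6.85 and 7.89 against 7.38 and 7.92. The UMIs of these 3 genes in T or NK-like cells were thus near the enterocyte-like ratio. So was H2-T3 in progenitor-like cells, at 0.996 and 1.98. Whether these UMIs are free RNA was not tested. H2-Q2 stood above the enterocyte-like ratio in enteroendocrine-like cells (43.8 and 65.8), goblet-like cells (16.0 and 27.6) and Paneth-like cells (23.6 and 22.4). H2-T3 stood above it in Paneth-like cells, at 8.87 and 10.2, though from 9 and 5 UMIs. Erythroid-like cells, which carried 15213 and 8115 CPM of enterocyte markers, had ratios of 0.767 and 0.844 for H2-T3 and 6.91 and 9.70 for H2-Q2. H2-T3 itself varied among enterocyte-like cells on this measure, at 0.596 and 0.743 in the clusters poor in mitochondrial RNA and 2.74 and 3.24 in those rich in it. The few Cd1d1 UMIs of enterocyte-like cells came to 1.07 and 1.50 per 1000 T or NK marker UMIs, against 0.335 and 0.361 in T or NK-like cells.

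**Figure D2:**
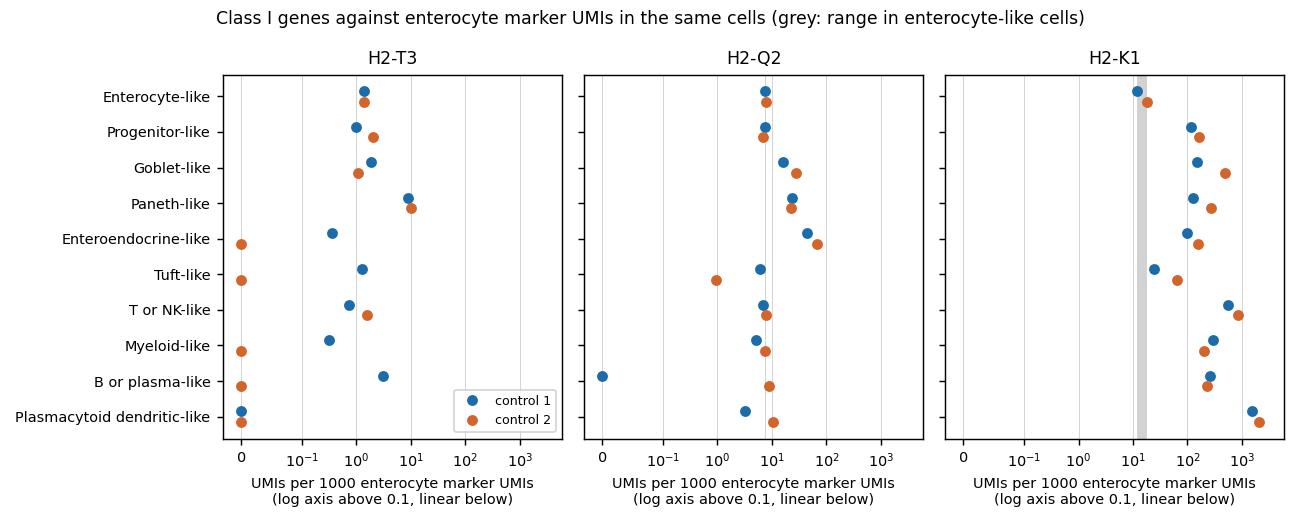
UMIs of H2-T3, H2-Q2 and H2-K1 per 1000 UMIs of 11 enterocyte markers in the same cells, by class, on a log axis above 0.1 and a linear one below it, with 1 point per library; the grey band is the range in enterocyte-like cells. T or NK-like cells lie close to the enterocyte-like value for H2-T3 and H2-Q2 and far above it for H2-K1.

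Differences between classes were tested on UMIs summed by class and library, with edgeR's quasi-likelihood test, the library as a block and Benjamini-Hochberg adjustment over all genes tested. Its log2 fold changes use TMM scaling, which sets the bulk of genes equal, and so differ from ratios of the CPM above. Scaling by total UMIs instead lowered the median of all genes by 0.20 to 0.82 on the log2 scale, depending on the comparison.

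Enterocyte-like cells exceeded progenitor-like cells, the dividing cells of the crypt from which they derive, in 6 of the 9 genes. H2-Q1 was higher by 4.91 ± 0.37 on the log2 scale (SE here and below; edgeR adjusted p = 1.73e-12), H2-T3 by 4.49 ± 0.33 (1.44e-12) and H2-Q2 by 4.46 ± 0.21 (5.45e-17). The progenitor-like side rests on 4 and 4 UMIs for H2-Q1 and 7 and 5 for H2-T3, few above the floor of 3 counts. The size of these 2 differences is therefore uncertain, and whether those UMIs are free RNA was not tested. B2m rose by 1.41 ± 0.14 (5.07e-10) and H2-K1 by 1.18 ± 0.14 (3.27e-08). H2-D1 was higher by 0.43 ± 0.16 (edgeR adjusted p = 0.0189), but this value did not hold. By total UMIs it came to -0.03, and to -0.16 and 0.10 in control 2 and control 1 alone, as CPM ratios without TMM. Of 15 alternatives 4 lost the call and 2 turned the direction, the latter both by total UMIs. Cd1d1 was lower by 2.05 ± 0.75 (a log2 change of -2.05, 0.0206), while Tap1 (-0.00) and Tap2 (0.23) did not pass. Of the 11160 genes tested, 56.1% passed, 30.6% higher and 25.5% lower, against 7 of the 9, and the median change was 1.18 over the 9 genes and 0.08 over all. By total UMIs, 36.8% of the calls were higher, against 54.6% under TMM.

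Restricting the progenitor-like class to cells without T or NK marker UMIs lowered its class I levels. H2-K1 then stood at 144 and 166 CPM in these cells from 34 and 9 UMIs, and B2m at 237 and 258 from 56 and 14. H2-D1 stood at 59.4 and 55.4 CPM from 14 and 3 UMIs, and H2-Q2 at 33.9 and 36.9 from 8 and 2. In control 2 the H2-D1 value equals the floor of 3 counts and the H2-Q2 value lies below it. The enterocyte-like excess became 2.78 ± 0.46 for H2-K1 (edgeR adjusted p = 2.42e-07), 2.93 ± 0.51 for H2-D1 (1.11e-06), 2.58 ± 0.45 for B2m (1.14e-06) and 3.97 ± 0.56 for H2-Q2 (8.86e-10). No UMI of H2-T3, H2-Q1, Tap2 or Cd1d1 was found in these cells, which allows up to 12.7 CPM in control 1 and 55.4 in control 2. All 6 and 2 Cd1d1 UMIs of the progenitor-like class lay in cells with T or NK markers, but at this depth the absence of Cd1d1 from the other cells was not informative. The H2-D1 difference moved from 0.43 to 2.93 with the restriction, on 14 and 3 UMIs in the restricted cells.

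The pathway lists, chosen with earlier results of these data known, moved as follows in the whole-class comparison. Of 12 peptide-loading and immunoproteasome genes, 7 passed, a share near the 56.1% of all genes, and all 7 rose in enterocyte-like cells (6 passed in DESeq2), among them Tapbp (tapasin, which holds the heavy chain to the transporter) by 1.22 and Calr (calreticulin) by 1.14, which came to -0.00 at Leiden resolution 0.5. Their median was 0.56. None of 14 constitutive proteasome genes passed in edgeR or DESeq2, and none had an unadjusted p under 0.05 (median -0.09). Of 19 regulators of class I and interferon signalling, 7 rose, led by Irf7 (3.39) and the interferon gamma receptor chain Ifngr2 (2.65), and 2 fell, Nlrc5 (-3.16), the transactivator of class I genes, and Socs1 (-1.52), a feedback inhibitor of cytokine signalling. Nlrc5 was at 2.91 and 5.20 CPM in enterocyte-like and 52.0 and 37.0 in the whole progenitor-like class. Against progenitor-like cells without T or NK marker UMIs its difference was -0.81 (edgeR adjusted p = 0.797), and Socs1 turned to 7.42 (0.658), so that neither passed. Irf7 (3.52, 9.04e-04) and Ifngr2 (1.76, 0.00543) still did. In that restricted fit, with fewer cells and no T or NK marker RNA on the progenitor-like side, 1632 of the genes tested passed. The cause of the lower count was not tested.

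Of 9 other class I and class I-like genes tested, of 19 found, 3 rose and 5 fell, beside 30.6% and 25.5% of all genes tested. Fcgrt, the neonatal Fc receptor, rose by 3.11 and H2-T23, which encodes the Qa-1 ligand of NKG2A, by 1.66, whereas H2-Q7 fell by 3.42 and H2-Q6 by 3.39. H2-Q7 and H2-Q6 did not pass against progenitor-like cells without T or NK marker UMIs (-1.08, edgeR adjusted p = 0.457, and 7.63, 0.634), while Fcgrt (3.99, 0.00348) and H2-T23 (4.35, 2.22e-07) did. Of 13 genes of CD1d lipid loading and endosomal transfer, 6 rose and 1 fell, with Mttp, the microsomal lipid transfer protein, at 5.31, the protease gene Ctss at 2.38 and the lipid-binding activator gene Gm2a at -1.98. Of these, Gm2a did not pass in the restricted fit (-0.32, 0.946). All 6 lymphocyte receptor genes tested fell, including Cd8b1 (-4.75) and Cd8a (-3.79). Cd8a was at 213 and 268 CPM in the whole progenitor-like class and 10.8 and 14.8 in enterocyte-like cells. Without the marker-bearing cells its difference was -0.43 (edgeR adjusted p = 0.815).

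Goblet-like cells, the mucus-secreting cells, kept the classical genes and had little H2-T3 and H2-Q1. H2-Q2 was lower than in enterocyte-like cells but was seen in 42.9% and 40.3% of goblet-like cells. H2-Q1 was lower than in enterocyte-like cells by 4.46 ± 0.37 (a log2 change of -4.46, edgeR adjusted p = 0.00016), H2-T3 changed by -3.75 ± 0.40 (0.000358) and H2-Q2 by -2.41 ± 0.22 (0.000206). Tap2 was higher by 0.65 ± 0.22 (0.0411), a call lost in 9 of 14 alternatives, and B2m passed as lower in 6 of 14. H2-K1 (0.35, 0.196), H2-D1 (0.45, 0.0887), B2m (-0.52, 0.0786) and Tap1 (-0.04) did not pass, and Cd1d1 had too few counts to test. Of 10880 genes, 50.2% passed, 22.8% higher and 27.5% lower, and the median was -0.28 over the 8 genes tested and -0.08 over all. H2-T3 and H2-Q1 in goblet-like cells, at 1.82 and 1.05 and at 0.962 and 0.658 UMIs per 1000 enterocyte marker UMIs, were near the enterocyte-like ratio.

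The list counts that follow stand beside 50.2% of all genes tested, 22.8% higher and 27.5% lower. All 14 constitutive proteasome genes were lower in goblet-like cells, with a median of -1.35 and the extremes Psma4 (-2.12) and Psma5 (-1.80). Peptide-loading and immunoproteasome genes divided into 5 higher and 5 lower of 12. The chaperone genes Pdia3 (1.32) and Tapbp (1.28) led the first, and Psme2 (-1.73), a proteasome activator subunit, and Psmb9 (-1.37), an immunoproteasome subunit, the second. Other class I genes gave 5 higher and 1 lower of 9. Mill2, a class I-like gene outside the MHC, was at 28.8 and 38.0 CPM in goblet-like and 0.374 and 0.552 in enterocyte-like cells, a difference of 6.36 ± 0.32 (edgeR adjusted p = 3.39e-05). H2-M3, which presents formylated peptides, rose by 1.91 and Fcgrt changed by -3.91. Regulators gave 6 higher and 2 lower of 19, led by Stat2 (1.51) and Ifngr1 (1.46), with Ifnar2 (-1.51) and Ifngr2 (-0.85) lower. The CD1d list gave 5 higher and 4 lower of 13, with Ctss (-3.67) and Mttp (-3.58) below, and none of 3 lymphocyte receptor genes passed in edgeR or DESeq2, or at an unadjusted p under 0.05.

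Enterocyte-like against T or NK-like cells set H2-T3, H2-Q1 and H2-Q2 most clearly apart. H2-T3 was higher in enterocyte-like cells by 5.84 ± 0.21 and H2-Q1 by 5.66 ± 0.20 (edgeR adjusted p = 3.5e-06 for each), and H2-Q2 by 5.48 ± 0.26 (4.88e-06). The T or NK-like counts of these genes lay near the enterocyte-like ratio to enterocyte markers. Whether they are free RNA was not tested, so the values describe the RNA in the droplets. Cd1d1 went the other way, at -4.26 ± 0.31 (2.48e-05), together with Tap2 at -1.64 ± 0.15 (7.28e-05), Tap1 at -1.13 ± 0.15 (0.000504) and H2-D1 at -1.23 ± 0.23 (0.00223). H2-K1 (-0.10 ± 0.27, 0.741) and B2m (0.19 ± 0.25, 0.49) did not pass. By total UMIs these became -0.86 (0.0159) and -0.56 (0.0496), both called lower. Of 12741 genes, 76.8% passed, 36.1% higher and 40.7% lower, so that 7 of 9 genes passing lay close to the share among all genes. The median was -0.10 over the 9 genes and -0.16 over all, and 47% of the calls were higher, against 30.6% by total UMIs.

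Among the other class I genes in this comparison, Fcgrt (5.58) and Hfe (2.95), which regulates iron uptake, were higher and 7 of 12 were lower. This and the list counts below stand beside 76.8% of all genes tested, 36.1% higher and 40.7% lower. Mr1, which presents vitamin B metabolites, was at 0.125 and 0.0788 CPM in enterocyte-like and 8.95 and 8.46 in T or NK-like cells, and H2-Q6 at 3.03 and 1.65 against 171 and 135. All 14 constitutive proteasome genes were higher, with Psma4 at 1.84 and Psmb6 at 1.79 and a median of 1.30, against a scaling shift of -0.75. Loading and immunoproteasome genes gave 5 higher, including Psme2 (2.26) and Psmb10 (1.73), and 4 lower, including the peptidase gene Lnpep (-2.18) and Tapbpl (-0.94), of 12. Regulators gave 3 higher and 11 lower of 19, with Ifngr2 at 4.91, Irf7 at 1.97, Socs1 at -3.46 and Nlrc5 at -5.02. Nlrc5 was at 207 and 217 CPM in T or NK-like cells. The CD1d list gave 4 higher and 4 lower of 13, with Mttp (6.17) and Ctss (2.02) above and Gm2a (-3.06) below. All 12 lymphocyte receptor genes tested were lower, and Klra1 and Klra9, inhibitory receptors of classical class I, had 0 UMIs in enterocyte-like cells. The CD8 alpha chain gene Cd8a was at 1011 and 873 CPM in T or NK-like cells and the beta chain gene Cd8b1 at 71.9 and 80.5.

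**Figure D3:**
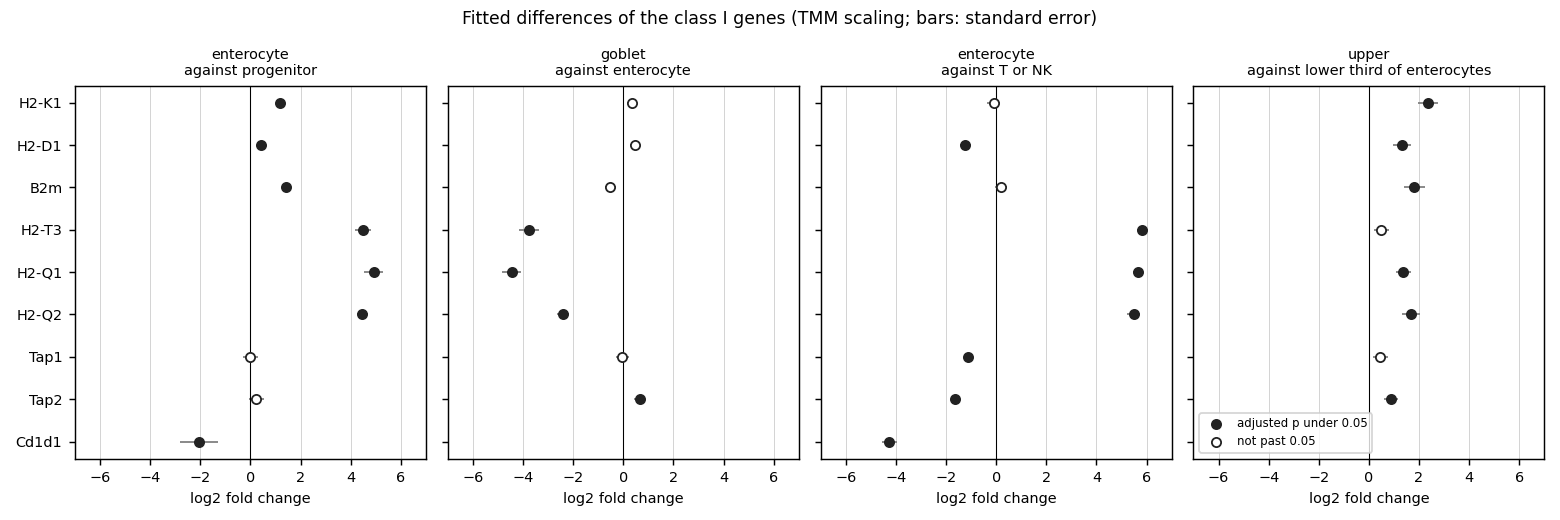
Fitted log2 fold change of each gene in 4 comparisons, with bars for the standard error; filled points have an edgeR adjusted p under 0.05 and a missing point was not tested. H2-T3, H2-Q1 and H2-Q2 lie between 4.46 and 4.91 in the first panel and between 5.48 and 5.84 in the third.

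Within the immune cells few of the 9 genes passed the test. In B or plasma-like against T or NK-like cells H2-K1 alone passed, at -0.95 ± 0.32 (edgeR adjusted p = 0.0385), and H2-D1 came to -0.86 (0.0723). The H2-K1 call was lost in 6 of 11 alternatives. Of 10561 genes, 7.98% passed, 3.15% higher and 4.83% lower, with medians of 0.02 over the 9 and -0.26 over all, and 39.5% of the calls were higher, against 15.9% by total UMIs. The class joined unlike cells. Cluster 24, led by the B-cell genes Ebf1, Bank1 and Pax5, had H2-K1 at 1093 and 820 CPM and H2-D1 at 1013 and 869. Cluster 25, led by Jchain and immunoglobulin genes of plasma cells, had 217 and 270 for H2-K1 and 237 and 135 for H2-D1. These cluster levels are shares of all UMIs and are not corrected for abundant immunoglobulin RNA. In the whole B or plasma-like class 11 B or plasma markers summed to 583457 and 240131 CPM. Of the lists, Ctss (3.50) and Gm2a (1.56) were the 2 higher of 13 CD1d genes, and Nlrc5 (-1.87) and Ifngr1 (-2.37) were among 3 lower of 19 regulators, with Ifngr2 (2.50) and Ifnar2 (1.22) the 2 higher. H2-Q7 (-1.95) was the 1 called of 10 other class I genes, and 5 of 11 lymphocyte receptor genes were lower. DESeq2 called 1 CD1d list gene, 1 regulator, 1 other class I gene and 3 lymphocyte receptor genes. No loading, immunoproteasome or constitutive proteasome gene passed in edgeR or DESeq2, with 2 of 12 and 1 of 14 at an unadjusted p under 0.05.

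In myeloid-like against T or NK-like cells none of the 9 genes passed, the nearest being H2-Q2 at 0.92 (edgeR adjusted p = 0.137). None had an unadjusted p under 0.05 and DESeq2 called 0, while 30.1% of 10968 genes did, 15.8% higher and 14.4% lower. The medians were 0.25 over the 9 and -0.17 over all, and 52.3% of the calls were higher, against 24.9% by total UMIs. T or NK markers summed to 7187 CPM in myeloid-like cells of control 1 and 451 in those of control 2, and their part in these results was not tested. Other class I genes did differ, with 6 higher and 3 lower of 14. Hfe was at 128 and 68.5 CPM in myeloid-like against 0.147 and 0.622 in T or NK-like cells (8.65 ± 0.49, 2.11e-64), and H2-M2 at 106 and 31.1 against 0.220 and 0 CPM. H2-Q6 (-2.59) and H2-Q7 (-2.57) were lower. Of the CD1d list 6 were higher and 1 lower of 13, with Ctss at 5.83, Gm2a at 5.12 and Ap3b1 at -0.76. Constitutive proteasome genes gave 12 higher of 14, led by Psma7 (1.36) and Psma6 (1.34), while DESeq2 called 4. Loading and immunoproteasome genes gave 4 higher and 2 lower of 12, with Psme1 (1.51), Psmb9 (1.35), Lnpep (-0.96) and Erap1 (-0.91), while DESeq2 called 3. Regulators gave 4 higher, including Ifngr2 (4.43) and Irf7 (1.78), and 3 lower, including Nlrc5 (-2.04) and Jak1 (-1.35), of 19. Lymphocyte receptors gave 2 higher, Pirb (9.20) and Lilrb4a (1.87), and 7 lower of 12. DESeq2 called 7 other class I genes, 5 CD1d list genes, 5 regulators and 5 lymphocyte receptor genes.

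Cd1d1 counts in single immune clusters were small outside the T or NK-like class. Cluster 14 of the myeloid-like class, led by the macrophage genes C1qa, C1qb and C1qc, had 40.1 and 38.8 CPM from 13 and 3 UMIs, and cluster 22, led by S100a4 and Ifitm6, 10.0 and 4.10 from 5 and 1 UMIs. Among T or NK-like clusters Cd1d1 was at 11.2 and 7.33 CPM in cluster 4, 20.9 and 23.4 in cluster 7, led by Trdc and Gzmk, and 23.1 and 18.5 in cluster 3, led by Cd7 and Gzma. Cluster 24, led by B-cell genes, had 1 and 2 UMIs, and cluster 25, led by plasma-cell genes, 1 and 0. Clusters 3 and 7 overlapped, and the myeloid-like and B or plasma-like counts are too few to order their clusters.

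The balance of heavy chains can be compared across classes without a scale factor, as shares of UMIs within a class. H2-T3 made up 7.33% of H2-T3, H2-K1 and H2-D1 UMIs in enterocyte-like cells of control 1 (exact binomial 95% interval 7.04 to 7.63) and 5.18% of control 2 (4.87 to 5.50). Goblet-like cells had 0.793% and 0.152%, and T or NK-like cells 0.0668% and 0.0953%. Paneth-like cells, low in every classical gene, had 4.52% and 2.69%. H2-Q2 made up 29.5% and 24.2% of its sum with the classical pair in enterocyte-like and 22.2% and 22.3% in enteroendocrine-like cells, against 6.58% and 3.84% in goblet-like and 0.631% and 0.483% in T or NK-like cells. The same share for Cd1d1 was 0.606% and 0.595% in T or NK-like, 0.835% and 0.597% in myeloid-like and 0.0464% and 0.0492% in enterocyte-like cells. The highest H2-T3 and Cd1d1 shares thus fell in different classes.

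The classical pair itself was unevenly divided. H2-K1 gave 66.8% and 73.1% of H2-K1 plus H2-D1 UMIs in enterocyte-like, 66.3% and 70.8% in goblet-like, 67.4% and 72.4% in Paneth-like and 64.3% and 68.2% in enteroendocrine-like cells. In T or NK-like cells it gave 50.7% and 52.5%, in plasmacytoid dendritic-like 49.2% and 50.8%, in B or plasma-like 49.7% and 50.6% and in myeloid-like cells 43.7% and 45.0%. Tuft-like cells had the lowest share, 34.0% and 31.5%. These 4 epithelial classes lay above the immune classes in both libraries, and tuft-like cells below them.

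**Figure D4:**
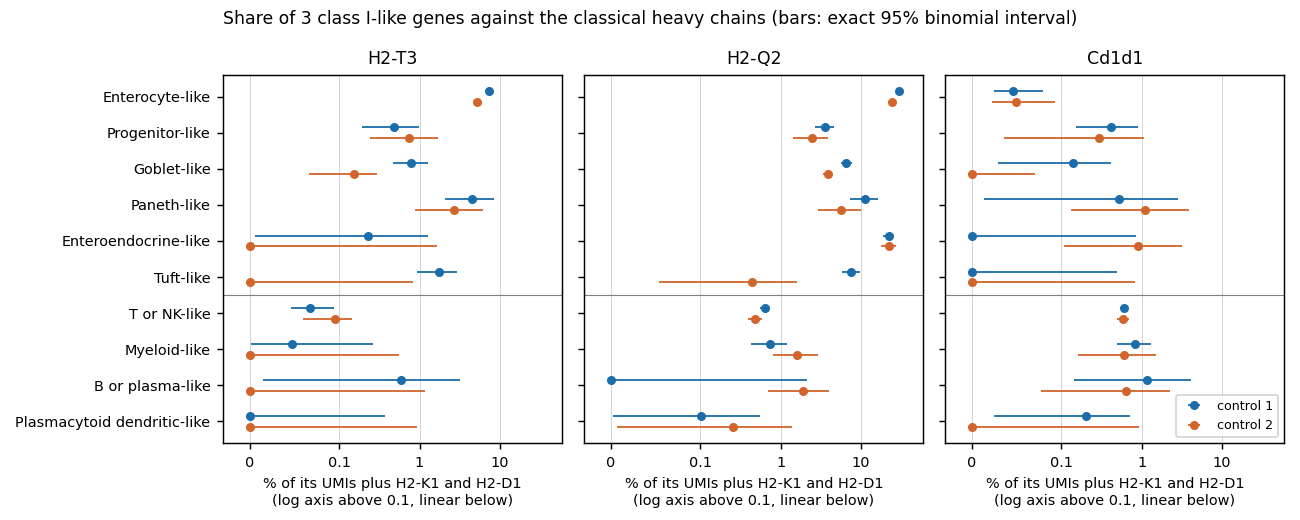
Share of H2-T3, H2-Q2 or Cd1d1 in its UMIs plus those of H2-K1 and H2-D1, in percent, by class and library, with exact 95% binomial intervals, on a log axis above 0.1 and a linear one below it. Enterocyte-like cells have the highest H2-T3 and H2-Q2 shares, and their Cd1d1 shares of 0.0464% and 0.0492% lie below those of T or NK-like cells.

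Along the villus, the finger-like fold that enterocytes climb as they age, most of the 9 genes rose. Enterocyte-like cells were ordered in each library by upper against lower villus landmark genes, none of them a member or a listed gene, and the upper tertile (1202 and 894 cells) was compared with the lower (1204 and 808). H2-K1 stood at 344 and 469 CPM in lower cells and 1755 and 1813 in upper cells. B2m went from 572 and 819 to 2336 and 1839 CPM, and H2-D1 from 251 and 294 to 690 and 499. H2-Q2 went from 250 and 281 to 903 and 614 CPM and H2-Q1 from 47.3 and 50.5 to 136 and 89.1. The lower and upper values of these 5 genes did not overlap. Tap2 went from 17.5 and 18.4 to 34.7 and 23.6 CPM and Tap1 from 17.1 and 18.6 to 27.5 and 15.9. Cd1d1 had 8 and 3 UMIs in lower and 5 and 5 in upper cells and was not tested.

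H2-T3 rose in control 1, from 78.9 to 120 CPM, and not in control 2, at 77.8 and 76.5. The log2 changes were 2.35 ± 0.40 for H2-K1 (edgeR adjusted p = 1.9e-05), 1.80 ± 0.42 for B2m (0.000754), 1.69 ± 0.36 for H2-Q2 (0.000265), 1.38 ± 0.29 for H2-Q1 (0.000288), 1.32 ± 0.34 for H2-D1 (0.00256) and 0.89 ± 0.27 for Tap2 (0.0091), whose call was lost in 7 of 15 alternatives. H2-T3 (0.50 ± 0.29, 0.168) and Tap1 (0.46 ± 0.28, 0.191) did not pass. Of 10164 genes, 41.4% passed, 20.2% higher and 21.2% lower, against 6 of 8, all higher. The medians were 1.35 over the 8 and -0.00 over all, and 48.9% of the calls were higher, against 34.8% by total UMIs.

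The H2-T3 result differed with the cells that entered. Cells of the clusters rich in mitochondrial RNA, which were also the deepest (median 38892 and 22699 UMIs), numbered 103 and 44 in the lower and 126 and 147 in the upper tertile. In clusters poor in it H2-T3 went from 34.9 and 54.9 to 101 and 77.3 CPM (0.93, edgeR adjusted p = 0.0209), and in clusters rich in it from 102 and 100 to 134 and 76.0 (-0.15). With cells thinned to 2000 UMIs it went from 44.8 and 53.8 to 105 and 82.5 (0.87, 0.0122), with the rich clusters kept. Depth and mitochondrial share cannot be told apart here. H2-D1 (1.30, 0.116) and B2m (1.72, 0.0702) did not pass in the rich clusters alone. The splits into poor and rich clusters were added after the data were seen.

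Relative to the classical genes H2-T3 changed in the same direction in both libraries. Its share of H2-T3, H2-K1 and H2-D1 UMIs went from 11.7% (exact binomial 95% interval 11.0 to 12.5) and 9.26% (8.40 to 10.2) in lower cells to 4.67% (4.35 to 5.00) and 3.20% (2.89 to 3.54) in upper cells. In the mitochondrial RNA poor clusters it went from 9.19% and 8.74% to 4.77% and 5.09%, and in the rich ones from 12.3% and 9.57% to 4.61% and 2.57%. On the log2 scale H2-T3 changed by 1.86 ± 0.16 (SD, n = 2) less than H2-K1, a difference of -1.75 in control 1 and -1.98 in control 2. The same difference was -1.92 ± 0.36 for Tap1, -1.48 ± 0.16 for Tap2, -1.04 ± 0.21 for H2-D1, -0.98 ± 0.21 for H2-Q1, -0.66 ± 0.23 for H2-Q2 and -0.55 ± 0.33 for B2m (SD, n = 2 each). H2-K1 thus changed most of the 8 genes in both libraries, and with 2 libraries no exact test can pass 0.05.

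The same order was cut into quintiles, with cells thinned to 2000 UMIs. H2-K1 was at 178, 255, 340, 719 and 2195 CPM from the lowest to the highest quintile of control 1 and at 356, 389, 470, 737 and 1864 in control 2, so that its widest step was the last. B2m went from 500 and 751 to 2827 and 1995. H2-D1 went from 165 and 214 to 801 and 541, H2-Q2 from 274 and 289 to 1150 and 705 and H2-Q1 from 43.5 and 47.4 to 160 and 103. H2-T3 was at 34.5, 52.5, 52.3, 71.8 and 123 in control 1 and at 56.1, 52.5, 76.2, 78.5 and 86.2 in control 2. Without thinning H2-T3 went from 73.5 to 130 in control 1 and from 86.0 to 76.4 in control 2. T or NK marker RNA also rose, from 311 and 331 CPM in lower to 731 and 584 in upper cells. Cd8a went from 5.61 and 11.5 to 13.9 and 17.7 CPM, and the part of this RNA in the class I changes was not tested. Enterocyte marker RNA went from 48156 and 49494 CPM in lower to 81071 and 52680 in upper cells.

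**Figure D5:**
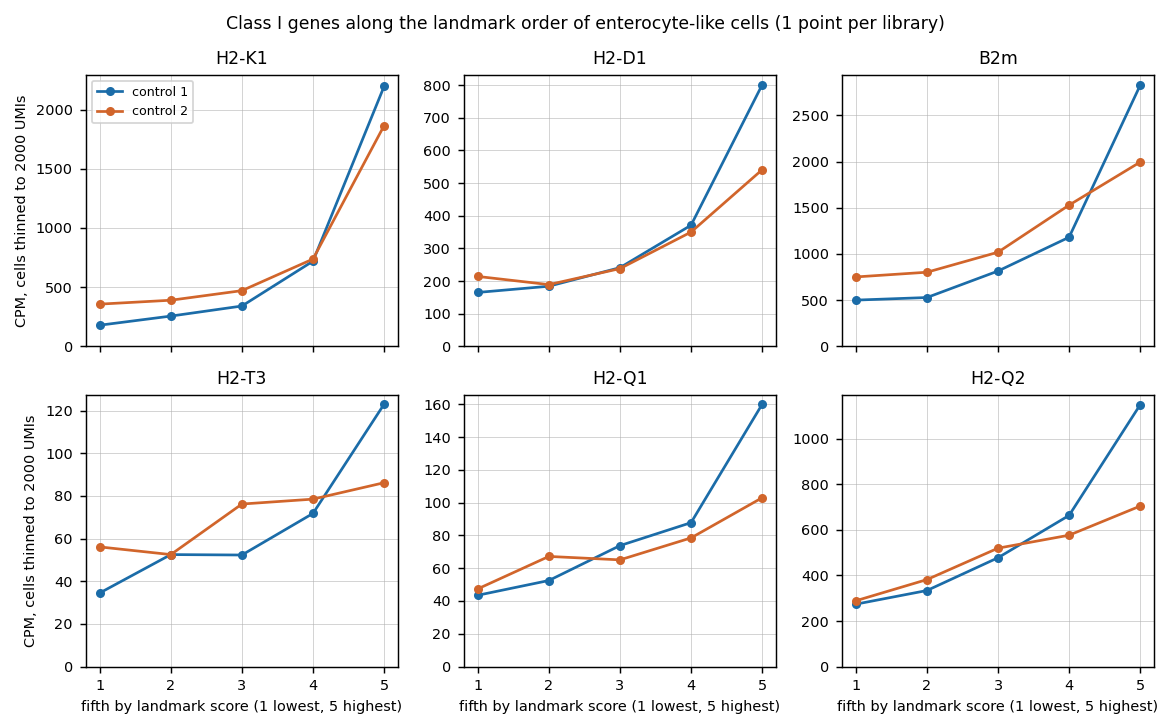
Level of 6 genes along quintiles of enterocyte-like cells ordered by landmark genes, in CPM after thinning each cell to 2000 UMIs, 1 line per library. H2-K1 goes from 178 and 356 in the lowest to 2195 and 1864 in the highest quintile, and H2-T3 from 34.5 and 56.1 to 123 and 86.2.

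Of the 19 regulators, 10 rose along this axis, 9 did not pass and none fell, where 20.2% of all genes tested rose, and DESeq2 called 8. They were led by Irf7 (2.15 ± 0.29, edgeR adjusted p = 5.37e-07) and Jak2 (1.72), with a list median of 0.80. Of 9 other class I genes 5 rose, led by H2-Q10 (1.68) and H2-T23 (1.45), and none fell, while DESeq2 called 1. Among loading and immunoproteasome genes 1 of 12 rose, Tapbp (1.69), and 3 fell, including the chaperone gene Canx (-1.38) and Pdia3 (-0.92). Of 14 constitutive proteasome genes 8 fell, including Psmb2 (-0.88) and Psma7 (-0.85), while DESeq2 called 4. The CD1d list gave 4 higher and 3 lower of 12, with Npc1 (2.92) above and Scarb2 (-1.22) and Npc2 (-1.09) below. Of 3 lymphocyte receptor genes tested, Cd8a (1.17) and Klrd1 (1.02) rose, while DESeq2 called 0. For the loading and immunoproteasome list DESeq2 called 4 genes and for the CD1d list 6.

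Single enterocyte-like clusters ranged widely. Cluster 9, led by Apoa1 and Reg3b among others, had 2418 and 1948 CPM of H2-K1, 3230 and 3040 of B2m, 1240 and 979 of H2-Q2 and the highest H2-T3 of the clusters compared here, at 162 and 166. Reg3b was among the lower villus landmark genes, and the place of cluster 9 along the villus was not tested. Cluster 8, led by Krt19, had 126 and 152 of H2-K1, 138 and 198 of H2-Q2 and 19.4 and 27.7 of H2-T3. Cluster 11, led by Clca4a and holding the upper-villus genes Ada and Enpp3, had more H2-K1 than cluster 9, 3098 and 2545 CPM, but only 22.5 and 42.0 of H2-T3. Cluster 12, led by Mgam and Lct, had 861 and 1122 of H2-K1 beside 122 and 114 of H2-T3. High H2-K1 thus stood beside high H2-T3 in cluster 9 and beside low H2-T3 in cluster 11. In cluster 12 high H2-T3 stood beside H2-K1 near the level of the whole enterocyte-like class (778 and 1053 CPM).

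Across 21 clusters, on log2(CPM + 1) averaged over both libraries, the genes most like H2-T3 were Slc51a (Pearson r = 0.958), Dnajc22 (0.944), Tmem120a (0.942), 2010106E10Rik (0.936) and Dio1 (0.934), of 11080 genes compared. Slc51a encodes a subunit of the basolateral bile acid transporter and Dio1 a thyroid hormone deiodinase. H2-T3 correlated with H2-Q1 at 0.942 and H2-Q2 at 0.931, but with H2-K1 at -0.216, H2-D1 at -0.344, B2m at 0.008 and Cd1d1 at -0.713. The genes most like Cd1d1 were Vsir (0.965), an inhibitory receptor gene, Hpgds (0.959), a prostaglandin D2 synthase gene, Gpr65 (0.950), Emb (0.949) and Lpcat1 (0.948). Cd1d1 correlated with Tap2 at 0.764, Tap1 at 0.735, H2-D1 at 0.725 and H2-K1 at 0.511. These correlations describe clusters that share libraries and free RNA, and clusters are not replicates.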

How the data were processed

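UMI counts per gene and cell were used as deposited by the authors. Per the file headers they come from Cell Ranger 7.1.0, and the submitters' processing notes name Cell Ranger 6.1 and 7.1.0 with GRCm38 and mm10. Whether intronic or multiply matching reads were counted is not given in the sources used here. Per the labels, villus-rich and crypt-rich fractions were pooled before capture. Cells (at least 500 genes, at most 25% mitochondrial UMIs) were clustered jointly in scanpy 1.11.5 (2000 variable genes, 40 components, 15 neighbours, Leiden resolution 1.0) with members and listed genes left out. Markers were listed first, but the rule that scores them was changed after cluster names, and before member levels, were seen. Doublet calling marked 0.0702% of cells in control 1 and 0.590% in control 2 and did not work in the former, so doublets may remain. Counts were summed by class and library (at least 20 cells in each) and tested in edgeR 4.0.16 (R 4.3.3; filterByExpr, TMM, library as block), with a 0.05 threshold on the adjusted p. The 2028 genes used to cluster, name or split were left out of the adjustment. Blocking follows from the design, since both classes of a pair come from one library, and no other pairing exists. DESeq2 1.42.0, other scalings, cell filters and clusterings were alternatives. Scripts were tested on simulated data. Named genes are the 9 members, up to 2 called genes with the largest rise and 2 with the largest fall per list and comparison, and the 5 genes most correlated with H2-T3 and with Cd1d1 (some genes under this rule are not reported here); cluster-leading genes and Nlrc5 and Cd8a values outside that rule were chosen after their values were seen. The members and lists were chosen with earlier results of these data known. Poisson and binomial intervals (95%) and floors (3 counts) cover counting error only.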

Additional observations from a re-analysis of the deposited data

How the results depend on the processing

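Directions and calls of the 9 genes mostly held. Of 686 values of members under an alternative, 632 kept direction and side of the threshold, 30 lost the call, 19 gained it and 5 reversed (a change of sign where neither value passed was counted as held). Genes called numbered 6261 between enterocyte-like and progenitor-like cells, and 1632 with progenitor-like cells without T or NK marker UMIs, where fewer cells entered. They numbered 5467 between goblet-like and enterocyte-like cells, and 3594 with DESeq2 and 3629 with only mitochondrial RNA rich enterocyte-like cells. Between B or plasma-like and T or NK-like cells 843 were called, against 344 with DESeq2 and 269 after thinning. Between myeloid-like and T or NK-like cells 3304 were called, against 1405 with DESeq2, 1805 after thinning, 1798 with each library clustered by itself and 1641 when the top 6% of doublet scores were left out. Between upper and lower cells 4209 were called, against 2276 with DESeq2, 2190 after thinning and 1804 in the mitochondrial RNA poor clusters. Without the replicate block, the library term, the 6 counts were 4899, 4635, 8995, 765, 3300 and, for upper against lower cells, 2145. Between enterocyte-like and progenitor-like cells H2-D1 reversed by total UMIs, at -0.03 with both libraries and -0.16 without control 1 (0.10 without control 2). Tap1 reversed at Leiden resolution 0.5 (0.90, edgeR adjusted p = 0.0128) and with each library clustered by itself (0.91, 0.0204). Calr (-0.00) and Socs1 (0.07) reversed at resolution 0.5, and H2-Q6 (7.63) and Socs1 (7.42) without T or NK marker UMIs. B2m reversed against T or NK-like cells by total UMIs (-0.56), and Scarb2 between upper and lower cells in the mitochondrial RNA poor clusters (0.14). The cause was not tested. Goblet-like cells passed as higher for H2-K1 (0.79 and 0.72) and H2-D1 (0.66 and 0.58) with cells under 10% mitochondrial UMIs or mitochondrial RNA poor enterocyte-like cells only. H2-T3 between upper and lower cells came to -0.02 without control 1 and 0.60 without control 2. Values that leave out 1 library are CPM ratios by total UMIs, not TMM fits. In this comparison total UMIs moved the median of all genes by -0.20. With each library clustered by itself, B or plasma-like cells of control 1 numbered 14 and were not tested. A cluster of 85 cells there, led by Ebf1 and Bank1, was left unnamed by the naming rule. Thinning moved 55 of the class levels by more than their spread and left 44, and cell-averaged CPM moved 50 and left 49.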

Other observations

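A small enterocyte-like cluster was led by interferon-induced genes. Cluster 23 (58 and 32 cells), whose leading genes were Ifit1, Ifit3 and Isg15, had H2-K1 at 222 and 236 CPM, H2-D1 at 222 and 145, B2m at 894 and 955, H2-T3 at 35.1 and 45.5 and H2-Q1 at 93.5 and 63.6. Its H2-K1 was below that of clusters 9 and 11 and close to that of cluster 0 (229 and 258 CPM), whose H2-T3 was 46.3 and 36.8. These are levels of 1 cluster per library, with no test.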
